A study of Mus musculus with 18 samples.

Results

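The genes described here are the segments of the T cell receptor alpha locus, chosen by name: every gene whose symbol starts with Trav (variable), Traj (joining) or Trac (constant). There were 191 of them among the 55494 genes of the deposited matrix: 130 Trav, 60 Traj and Trac. RefSeq (GRCm38.p6) lists all 191, on chromosome 14, from Trav1 (start 52427967) to Trac (end 54224198).

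The data come from thymocytes of 6 female bone marrow chimeras of 14 weeks of age, 6 weeks after transplantation, 1 mouse for each of 2 receptor transgenes in each of 3 kinds of host. Donor marrow was OT1 or OT2 (30%), CD45.1.2 on a B6 background, mixed with 70% B6 CD45.1 competitor marrow. OT1 is a receptor for an ovalbumin peptide on MHC class I, OT2 for one on MHC class II. The PosSelected hosts were wild-type C57BL6/Ncr, the NegSelected hosts were RIPmOVA (Ins2-TFRC/OVA, in which an insulin promoter drives membrane ovalbumin), and the NoSelection hosts were b2m KO for OT1 and MHCII KO for OT2. By the labels the wild-type and RIPmOVA recipients were CD45.2 and the OT1 b2m KO recipient was CD45.1. The treatment label of the OT2 NoSelection mouse reads MHCII KO host B6.Ly5.1/Ncr. For the OT2 NoSelection host, a comment in the labels names a b2m KO instead, so the labels conflict on this animal. Donor cells were sorted as CD44lo CD45.1.2+ with antibodies to Va2 and Vb5, the 2 chains of both transgenic receptors, tagged by hashtag and run together in 1 lane of 10x Genomics 5' v2 chemistry with barcoded antibodies. The receptor sequencing libraries of these mice are not analysed here.

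In all, 1331 cells were read, 108 to 306 a mouse. Totals were 525843 to 1867488 RNA UMIs a mouse, a UMI being 1 counted molecule. The median cell held 4733 to 5385 RNA UMIs in the OT1 mice and 2756 to 3021.5 in the OT2 mice. Cells were placed in gates by their CD4 and CD8A antibody counts: CD4-CD8-, CD4+CD8+, CD4+CD8- and CD4-CD8+. The CD4-CD8- gate held 31.9% to 74.8% of the cells of an OT1 mouse and 9.84% to 47.2% of those of an OT2 mouse. Bulk sums over a mouse cannot tell fewer cells with a transcript from less of it per cell.

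In the thymus the alpha locus is rearranged late, in CD4+CD8+ cells: 1 of many Trav segments is joined to 1 of many Traj segments, and the joined exon is spliced to Trac. Rearrangement can repeat on the same allele, starting with Traj segments on the Trav side and moving toward Trac, until a receptor is selected. Va2 is the chain encoded by the Trav14 family, so in a receptor-transgenic thymocyte a Trav14 transcript may come from the transgene or from the cell's own locus, while any other Trav comes from the cell's own locus. Some Trav segments also carry a delta name (dv), because they can join in the delta chain of gamma delta T cells as well. The Trav14 family had 9 genes in the files, and 121 Trav genes lay outside it, 9 of them delta-named.

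The protein of the sorted chain was read with an antibody to Va2 (TCRVA2), and the gates with antibodies to CD4 and CD8A. These 15-base tags, from the deposited antibody table, are what was counted for them, shown because all protein values below rest on them, with the whole tag in capitals.
TCRVA2: TTGACCCGCTACGAA
CD4: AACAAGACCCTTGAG
CD8A: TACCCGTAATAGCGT

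Alpha segments were a small part of the RNA. They took 7114 UMIs, 0.103% of all RNA UMIs: 5010 from Trac, 302 from the Trav14 family, 1615 from other Trav and 187 from Traj. Of the 191 genes, 129 had at least 1 UMI (7 of the 9 Trav14 genes, 72 of the 121 other Trav, 49 of the 60 Traj, and Trac) and 14 had 50 or more. No alpha UMI at all was found in 312 of 1331 cells (23.4%). Many Trav genes lie in duplicated stretches of nearly identical copies, and reads between such copies can be split or lost, so values of a single copy are uncertain and the families are also given as sums.

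Trac, the constant exons that every alpha chain ends in (chr14:54220521-54224198), was read at a lower level in every OT1 mouse than in any OT2 mouse. It stood at 132 UMIs per 1000000 RNA UMIs (CPM) in the OT1 NoSelection mouse, 270 in OT1 PosSelected and 169 in OT1 NegSelected. In the OT2 mice it stood at 1537 (NoSelection), 1966 (PosSelected) and 2808 CPM (NegSelected). The groups did not overlap, with means of 190 ± 71.4 (SD, n = 3) and 2103 ± 647 CPM (SD, n = 3). The difference of OT2 minus OT1 was 3.45 on the log2 scale (SE 0.22, adjusted p = 0.000188, edgeR's quasi-likelihood test over 9092 genes with host as a second term and Benjamini-Hochberg adjustment). Trbc1 and Trbc2, the constant genes of the partner chain, did not follow: together they stood at 2324 ± 258 CPM in OT1 and 1854 ± 399 in OT2 (SD, n = 3 each).

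**Figure D1:**
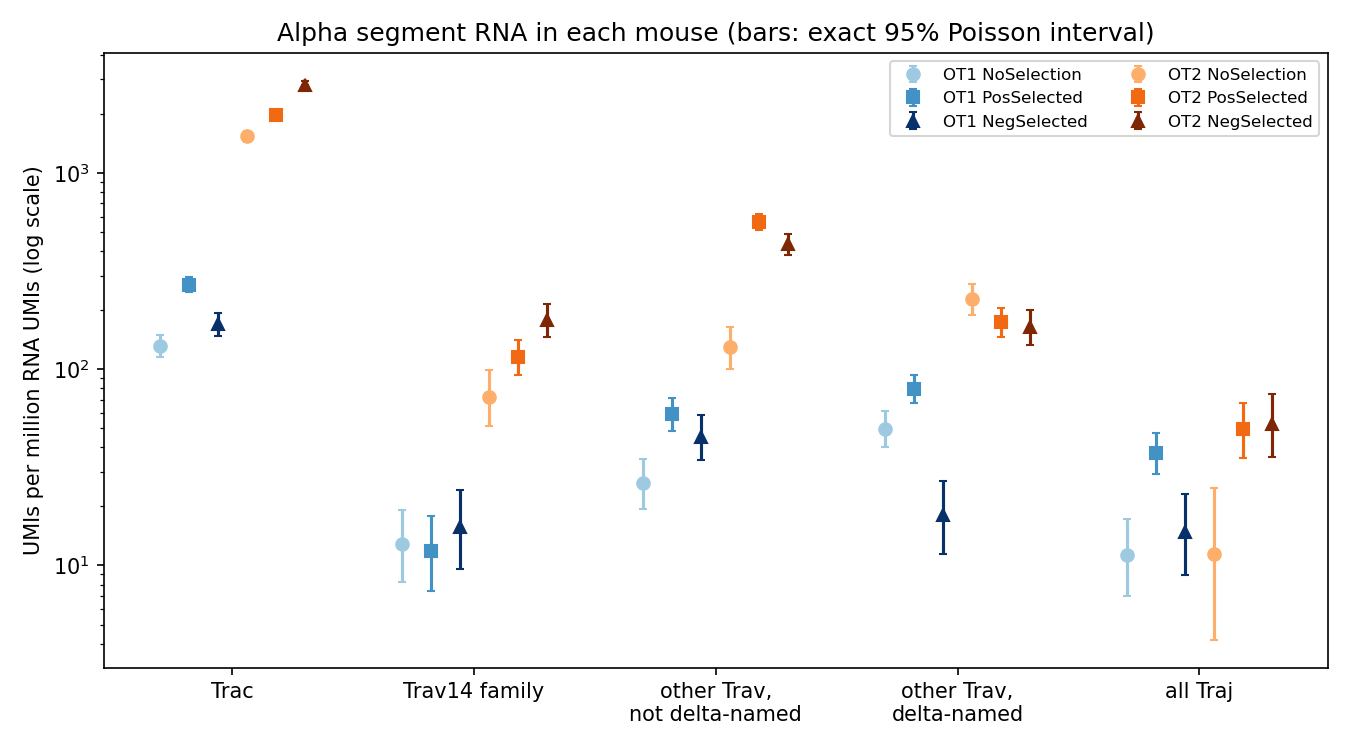
UMIs per 1000000 RNA UMIs (log axis) of Trac, the Trav14 family, other Trav without and with a delta name, and all Traj, 1 point per mouse with its exact 95% Poisson interval, which covers counting error only. Every OT2 mouse lies above every OT1 mouse for the first 4 quantities, and the Traj points of the 2 receptor lines overlap.

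The same order held for both kinds of variable segment. The Trav14 family was at 12.9, 11.8 and 15.7 CPM in OT1 (NoSelection, PosSelected, NegSelected) and at 72.3, 115 and 178 CPM in OT2. As 1 summed feature it was higher in OT2 by 3.08 on the log2 scale (SE 0.24, adjusted p = 0.000722). The other Trav genes, summed, were at 76.0, 139 and 63.4 CPM in OT1 and at 358, 738 and 597 CPM in OT2, a difference of 2.58 (SE 0.21, adjusted p = 0.000814). Of the 9070 features of this fit with families summed, 0.992% were called. Traj as a whole was at 11.2, 37.6 and 14.9 CPM in OT1 and at 11.4, 49.7 and 52.6 CPM in OT2; these ranges overlap, and the difference of 0.78 (SE 0.34) did not pass the test (adjusted p = 0.3825).

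Split by name after these values were seen, other Trav genes without a delta name were at 26.2 to 59.1 CPM in OT1 and 129 to 564 CPM in OT2, a difference of 2.95 (SE 0.23, adjusted p = 0.000609). The 9 delta-named genes were at 18.0 to 79.5 CPM in OT1 and 165 to 228 CPM in OT2, a difference of 2.02 (SE 0.32, adjusted p = 0.0253). The second call was lost without OT1 NegSelected (1.63, adjusted p = 0.1533) and without OT2 NegSelected (1.63, adjusted p = 0.1589). Trdc, the delta constant gene, moved the other way, at 464 to 855 CPM in OT1 and 107 to 327 CPM in OT2 (-1.88, SE 0.19, adjusted p = 0.003546). Of the 5 gamma delta markers tested (Trdc, Trgc1, Trgc2, Trgc4 and Sox13), Trdc and Trgc1 were called lower in OT2, where 1.07% of all genes were called. The 5 markers summed to 767 to 2094 CPM in OT1 and 292 to 1004 CPM in OT2 with none at 0 in any mouse. Their part in the alpha differences over whole mice was not tested.

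Of the 191 genes, 26 passed the filter on low counts, and all 26 had a fitted change above 0 for OT2 minus OT1, with a median of 2.85 against 0.01 over all genes. At adjusted p under 0.05, 7 of the 26 were called, all higher in OT2; over all 9092 genes, 97 were called (1.07%), 61 of them higher in OT2 (0.671% of all genes) and 36 lower. Since a gene could pass the filter through the OT2 mice alone, the 26 do not stand for the 191. The 7 called genes were Trac, 2 copies of the Trav14 family (Trav14-3 and Trav14d-3-dv8), and Trav15-2-dv6-2, Trav3-3, Trav13-1 and Trav4-4-dv10.

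Among them, Trav15-2-dv6-2 was counted in 19, 6 and 0 UMIs in OT1 (NoSelection, PosSelected, NegSelected) and in 46, 31 and 37 in OT2, a difference of 3.76 (SE 0.51, adjusted p = 0.01619). Trav3-3 gave 5, 10 and 2 UMIs in OT1 and 5, 49 and 20 in OT2 (3.27, SE 0.47, adjusted p = 0.0179); per 1000000 RNA UMIs its lowest OT2 value, 9.51, was above its highest OT1 value, 5.37. Trav13-1 gave 4, 13 and 4 UMIs in OT1 and 4, 28 and 20 in OT2 (2.51, SE 0.44, adjusted p = 0.0407). None of the 3 belongs to the Trav14 family that encodes Va2. Trav4-4-dv10, with 14 UMIs in OT1 and 49 in OT2, differed by 3.24 (SE 0.58, adjusted p = 0.0425). Of these 4, only Trav15-2-dv6-2 kept its call without OT1 NegSelected (3.23, adjusted p = 0.0123) and without OT2 NegSelected (3.24, adjusted p = 0.02905). Without the one or the other, Trav3-3 was at 2.93 in both fits (adjusted p = 0.1555 and 0.2032), Trav13-1 at 2.14 in both (0.4456 and 0.5499) and Trav4-4-dv10 at 2.88 and 2.89 (0.1955 and 0.2193). Trav13-1 also lost its call without OT1 PosSelected (2.71, adjusted p = 0.05182), without OT2 PosSelected (2.71, adjusted p = 0.05041) and with DESeq2 (2.52, adjusted p = 0.1235).

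Not every segment showed a called difference. Trav21-dv12, with 173 UMIs the most counted Trav, stood at 5.89, 36.5 and 13.3 CPM in OT1 and at 49.4, 42.2 and 28.8 CPM in OT2, where the OT1 PosSelected mouse lies within the OT2 range; its fitted difference was 1.22 (SE 0.47). Trav13-4-dv7 overlapped between the lines, at 0.78 to 17.7 CPM in OT1 and 7.45 to 23.8 CPM in OT2 (0.50, SE 0.75). Trav15-1-dv6-1, at 3.92 to 12.9 CPM in OT1 and 17.0 to 41.8 CPM in OT2, had a fitted difference of 1.69 (SE 0.35) that was not called.

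**Figure D2:**
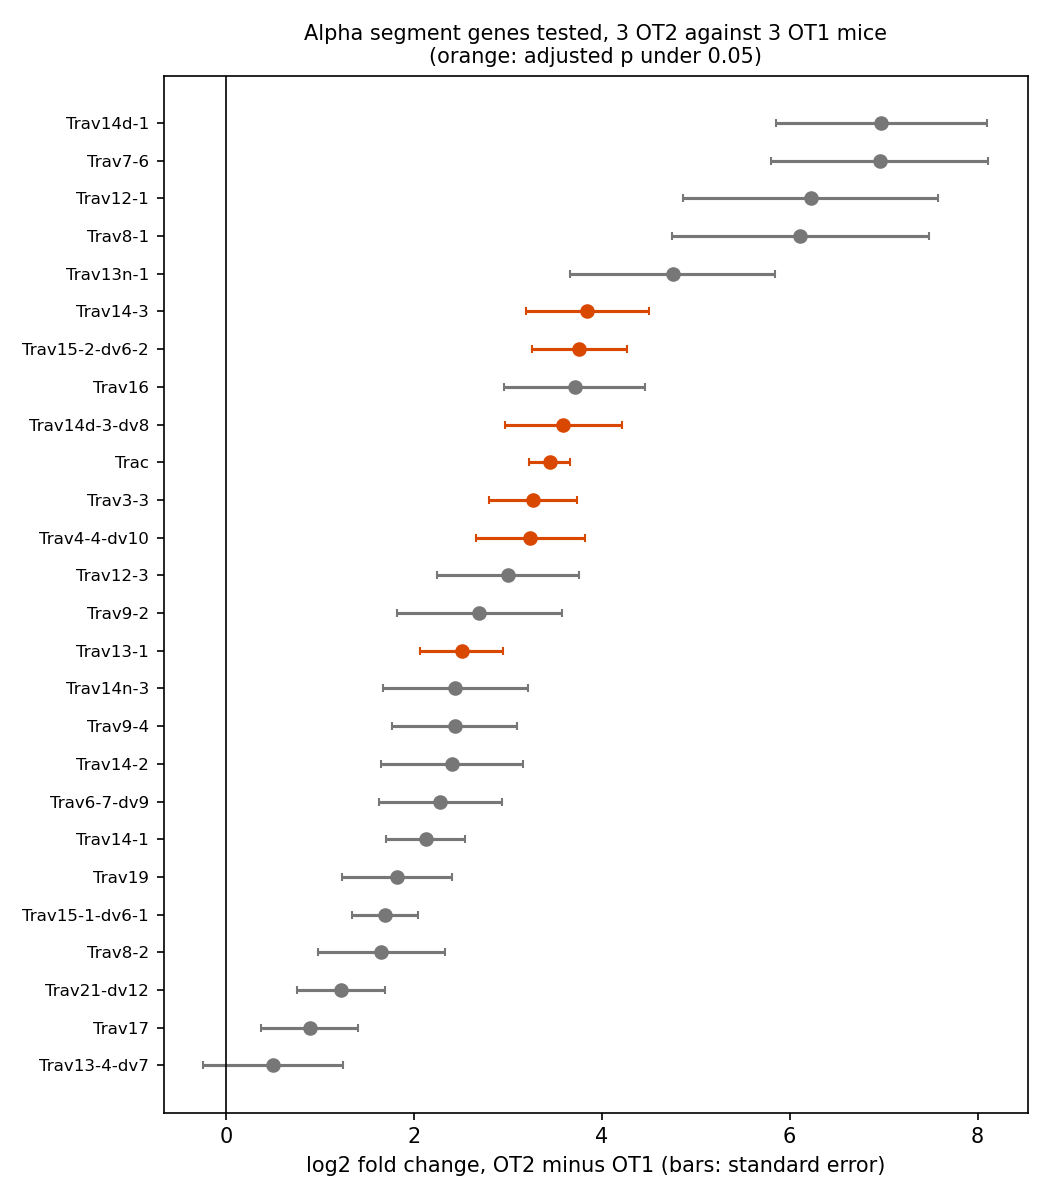
Fitted log2 fold change of OT2 minus OT1 with its standard error (x axis) for the 26 alpha genes that passed the filter on low counts (y axis, ordered by fold change). The 7 called genes are orange; the 4 grey points at the far right (Trav14d-1, Trav7-6, Trav12-1 and Trav8-1) had 0 UMIs in OT1, and their fitted values depend on the prior count.

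The copies of the Trav14 family were spread differently over the cells. Trav14d-1 (chr14:52855665-52856166) gave 26 UMIs in 26 cells and Trav14n-1 (chr14:53166677-53167178) 17 UMIs in 17 cells, never more than 1 a cell. Both were at 0 in all 3 OT1 mice and present in all 3 OT2 mice: 9, 6 and 11 UMIs for Trav14d-1 and 3, 7 and 7 for Trav14n-1. With OT1 set at 3 counts over its mice together, Trav14d-1 was at least 22.6-fold and Trav14n-1 at least 14.8-fold higher in OT2. These bounds cover counting error only, and both genes were singled out after their values were seen.

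The other 5 copies reached 5 to 11 UMIs in a single cell. Trav14-3 (chr14:53763196-53763694) gave 56 UMIs in 23 cells, with 11 in 1 cell, and 64.3% of its UMIs lay in its top 5 cells. It stood at 1.07, 2.15 and 0.78 CPM in OT1 and at 15.2, 11.2 and 54.3 CPM in OT2 (3.85, SE 0.65, adjusted p = 0.0366), but its call was lost without the OT2 NegSelected mouse, which held 57.1% of its UMIs (2.92, adjusted p = 0.7145), and without OT1 NegSelected (2.91, adjusted p = 0.402). Trav14d-3-dv8, with 38 UMIs in 29 cells, was at 0.54 to 1.61 CPM in OT1 and 11.4 to 25.4 CPM in OT2 (3.59, SE 0.62, adjusted p = 0.0404), and lost its call without either NegSelected mouse (3.44 and 3.45, adjusted p = 0.5484 and 0.6093) or either PosSelected mouse (3.28 and 3.29, adjusted p = 0.0837 and 0.05843; OT1 first). Trav14-1 gave 63 UMIs in 50 cells, at 3.21 to 5.37 CPM in OT1 and 11.4 to 26.1 CPM in OT2, and was not called (adjusted p = 0.0671). Trav14-2 overlapped between the lines, at 0.54 to 8.62 CPM in OT1 and 3.80 to 28.6 CPM in OT2. Trav14n-3 did not, at 0 to 4.82 and 7.61 to 20.4 CPM, but neither was called (adjusted p = 0.2413 and 0.2427).

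Because gates differed in size between the lines, the receptor difference was also fitted within a gate, on sums of at least 10 cells with receptor as the only term, a comparison added after seeing the data. In CD4+CD8+ cells Trac was at 297 CPM in OT1 NoSelection (20 cells) and 308 in OT1 PosSelected (19 cells), and at 5094, 5492 and 5776 CPM in OT2. OT1 NegSelected had 9 cells, under the minimum. The difference was 4.12 (SE 0.25, adjusted p = 7.904e-06), where 2.06% of features were called. The cells of this gate were unlike between the lines. Rag1 and Rag2 together were at 0 to 87.9 CPM in OT1 and 135 to 1725 CPM in OT2. Trdc was at 373 to 375 CPM in OT1 and 21.7 to 60.0 CPM in OT2. In CD4-CD8- cells Trac was at 86.6 to 137 CPM in OT1 and 858 to 1079 CPM in OT2 (3.15, SE 0.19, adjusted p = 7.191e-09; 1% of features called). In CD4+CD8- cells it was at 207 to 366 CPM in OT1 and 620 to 1891 CPM in OT2 (2.37, SE 0.32, adjusted p = 0.0009589; 0.643% called). Trac was thus higher in OT2 within each of these 3 gates. The CD4-CD8+ gate held 10 cells or more in 1 OT2 mouse and was not fitted.

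The Trav14 family was higher in OT2 within the CD4-CD8- gate (3.27, SE 0.53, adjusted p = 0.002965) and the CD4+CD8+ gate (3.97, SE 0.61, adjusted p = 0.0076). In CD4+CD8- cells it was at 116, 47.4 and 122 CPM in OT1 and at 150, 115 and 248 CPM in OT2, ranges that overlap, and the difference of 0.99 (SE 0.42) was not called (adjusted p = 0.4122). The test of whether the line difference changed from CD4+CD8+ to CD4+CD8- cells gave -3.13 (SE 0.96, adjusted p = 0.2221; 0.067% of features called). Other Trav was higher in OT2 in all 3 gates, by 3.30 (SE 0.29, adjusted p = 1.936e-06) in CD4-CD8-, by 2.12 (SE 0.45, adjusted p = 0.04087) in CD4+CD8+ and by 1.22 (SE 0.23, adjusted p = 0.02298) in CD4+CD8-. Without the delta-named genes the differences were 2.57 (SE 0.35), 2.10 (SE 0.43) and 1.77 (SE 0.32), called in each gate (adjusted p = 0.0004546, 0.03438 and 0.01539; 1.02%, 2.06% and 0.642% of features called). Tested gene by gene, 3 alpha genes passed the filter in CD4-CD8- cells and 2 were called (Trac and Trav15-2-dv6-2, 0.989% of genes called). In CD4+CD8+ and in CD4+CD8- cells Trac was the only alpha gene that passed the filter, and it was called (1.56% and 0.597% of genes called).

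In the OT2 mice Trac RNA was highest in CD4+CD8+ cells, whereas in the OT1 mice the CD4+CD8+ values, 297 and 308 CPM, lay within the range of the CD4-CD8+ cells, 296 to 459 CPM. With each mouse as a block (21 sums of at least 10 cells, 4374 genes tested), Trac was higher in CD4+CD8+ than in CD4-CD8- cells by 2.25 on the log2 scale (SE 0.26, adjusted p = 2.35e-06; 12.7% of genes called). It was then lower in CD4+CD8- than in CD4+CD8+ cells, -1.27 (SE 0.27, adjusted p = 0.002424; 10.3% called), and the change from CD4+CD8+ to CD4-CD8+, -0.77 (SE 0.31), was not called (adjusted p = 0.1462; 5.4% called). The remaining 2 of the 3 alpha genes that passed the filter here were Trav21-dv12, not called in any of the 3 comparisons, and Trav15-2-dv6-2, lower in CD4+CD8+ than in CD4-CD8- cells.

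In the OT2 mice, Trac went from 5094, 5492 and 5776 CPM in CD4+CD8+ cells to 620, 1767 and 1891 CPM in CD4+CD8- cells, and the groups did not overlap (-1.69, SE 0.23, adjusted p = 1.515e-05 in the OT2 mice alone; 10.7% of features called). In the OT1 mice it was at 297 and 308 CPM in CD4+CD8+ cells and at 207, 296 and 366 CPM in CD4+CD8- cells (-0.07, SE 0.29, adjusted p = 0.9858; 0.259% called). In OT1 CD4-CD8+ cells it was at 296, 357 and 459 CPM (0.23 against CD4+CD8+, SE 0.27, adjusted p = 0.8744; 0.069% called), and in OT2 the same step gave -1.75 (SE 0.38, adjusted p = 0.005159; 3.61% called), where the CD4-CD8+ arm is 1 mouse, assumed to vary like the other gates. The rise from CD4-CD8- to CD4+CD8+ cells was called in each line alone, at 1.53 in OT1 (SE 0.28, adjusted p = 0.004326; 1.62% called) and 2.31 in OT2 (SE 0.24, adjusted p = 4.466e-07; 10.4% called). The test of the difference between the lines gave -1.67 (SE 0.39, adjusted p = 0.1229; 0.0669% of genes called) for the step to CD4+CD8- and -2.05 (SE 0.46, adjusted p = 0.0432; 0.318% called; with families summed -1.999, adjusted p = 0.03277; 0.737% called) for the step to CD4-CD8+, which rests on 1 OT2 mouse with 23 CD4-CD8+ cells. That last call was lost without any one of the OT1 mice (NoSelection -2.18, adjusted p = 0.1784; PosSelected -1.88, adjusted p = 0.2482; NegSelected -1.94, adjusted p = 0.06258).

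**Figure D3:**
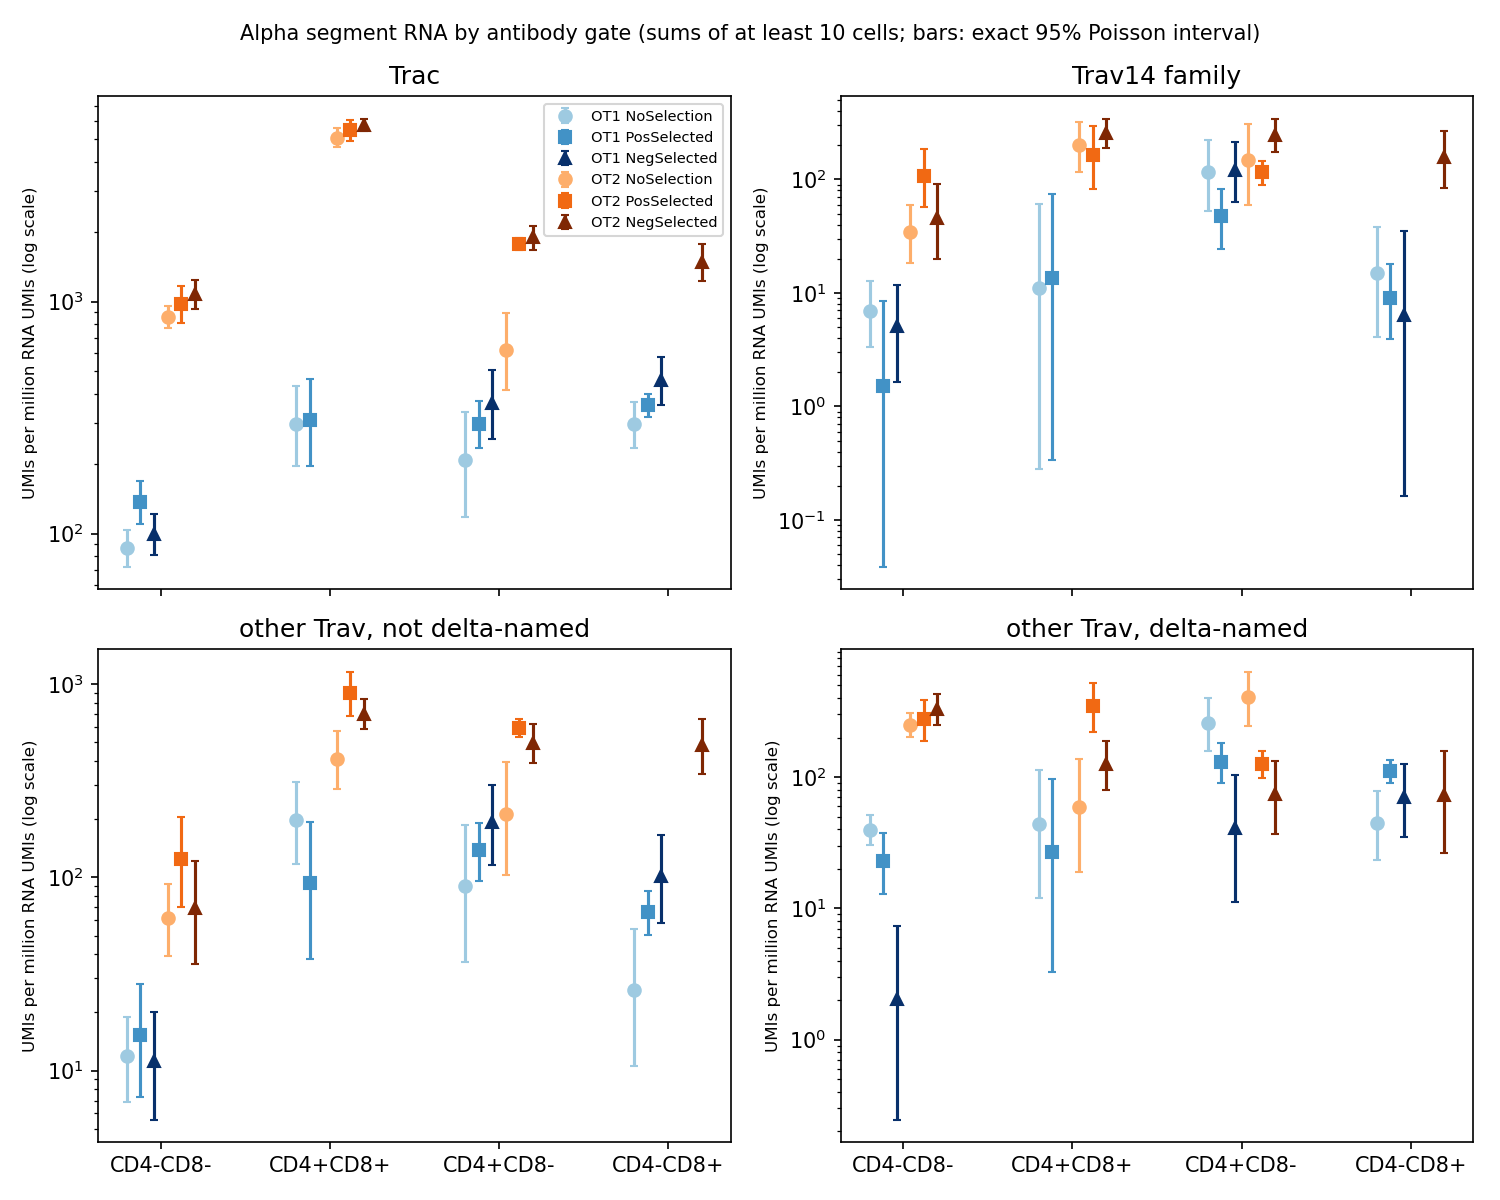
UMIs per 1000000 RNA UMIs (log axis) by antibody gate for Trac, the Trav14 family and other Trav without and with a delta name, 1 point per mouse and gate of at least 10 cells with its exact 95% Poisson interval. Trac in the OT2 mice peaks in CD4+CD8+ cells at 5094 to 5776 CPM, while delta-named Trav in the OT2 CD4-CD8- cells lie at 251 to 329 CPM, against 2.03 to 39.8 CPM in OT1.

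Variable segments split by name across gates. Other Trav without a delta name were higher in CD4+CD8+ than in CD4-CD8- cells by 3.14 (SE 0.28, adjusted p = 5.766e-08). They were at 11.2 to 15.3 CPM in OT1 and 61.5 to 125 CPM in OT2 CD4-CD8- cells, against 93.8 and 198 CPM in OT1 and 411 to 900 CPM in OT2 CD4+CD8+ cells. The same comparison for delta-named genes gave -0.35 (SE 0.64, adjusted p = 0.7898). The Trav14 family was also higher in CD4+CD8+ cells (2.13, SE 0.49, adjusted p = 0.00527), as was Traj (2.43, SE 0.56, adjusted p = 0.005686). Without OT2 NegSelected the calls of both were lost, at 1.99 (adjusted p = 0.06359) for the Trav14 family and 2.04 (adjusted p = 0.1026) for Traj. For none of the 3 summed families, Trav14, other Trav or Traj, did a change pass the test from CD4+CD8+ to either single-positive gate.

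The most counted delta-named gene of the CD4-CD8- gate was Trav15-2-dv6-2 (chr14:53649425-53649994). Of its 139 UMIs, 87.1% lay in CD4-CD8- cells, and 58.3% lay in 5 cells. It was lower in CD4+CD8+ than in CD4-CD8- cells (-3.30, SE 0.89, adjusted p = 0.01634; with DESeq2 -3.54, adjusted p = 0.2398). Of the 26 cells with this segment, pooled over mice, 73.1% also held a Trdc UMI. The share ran widely among single Trav segments of 20 or more UMIs. With a delta name, it ran from 8.33% of the 24 cells with Trav4-4-dv10 up to the 73.1% of Trav15-2-dv6-2. Without one, it was 0% of the 15 cells with Trav13n-4 and 4.44% of the 45 with Trav3-3. It was 50% of the 36 with Trav17 and 55% of the 20 with Trav13-5, which have no delta name either. Within the OT2 CD4-CD8- cells, 104 UMIs of Trav15-2-dv6-2 lay in 12 of 109 cells. Trav13-4-dv7 and Trav15-1-dv6-1 had 53.3% and 51.1% of their UMIs in CD4-CD8- cells. Trav4-4-dv10 and Trav6-7-dv9, delta-named as well, had 3.17% and 4.92% there. These shares also follow how much RNA the gate held. In OT1, Trav13-4-dv7 was at 10.75 CPM in CD4-CD8- and 25.63 in CD4+CD8- cells, and Trav15-1-dv6-1 at 6.19 and 20.97. In OT2 they were at 23.97 and 11.46 CPM, and at 38.95 and 19.09 CPM, in the same gates.

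Trdc was read with these segments cell by cell, mouse by mouse. In OT2 PosSelected, 6.82% of 44 cells with a delta-named Trav UMI held Trdc (exact 95% interval 1.43% to 18.7%), against 3.94% of 127 cells with only other Trav outside the family. In OT2 NoSelection the shares were 56.5% of 23 cells and 18.5% of 27, and in OT2 NegSelected 32.4% of 34 and 2.63% of 76. In the OT1 mice Trdc was in 75.0%, 54.5% and 33.3% of cells with a delta-named UMI (NoSelection, PosSelected, NegSelected) and in 60.9%, 42.6% and 34.8% of the cells with only other Trav. Cells with no Trav UMI at all held Trdc in 67.7% to 85.4% of cases in OT1 and 16.0% to 47.8% in OT2. Median depths differ between these sets, and all 6 mice shared 1 lane, and the part of free RNA in such co-detection was not tested.

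Most Trav UMIs lay outside the Trav14 family in all 6 mice. Of the Trav UMIs, those outside the Trav14 family made up 85.5% (exact Clopper-Pearson 95% interval 79.3% to 90.5%, 166 UMIs) in OT1 NoSelection, 92.1% (88.3% to 95.01%, 280 UMIs) in OT1 PosSelected and 80.2% (71.1% to 87.5%, 101 UMIs) in OT1 NegSelected. In OT2 they made up 83.2% (77.7% to 87.8%, 226 UMIs), 86.5% (83.7% to 88.9%, 687 UMIs) and 77.0% (72.9% to 80.8%, 457 UMIs). The lines overlapped, at 86.0% ± 5.98 and 82.2% ± 4.79 (SD, n = 3 each; exact two-sided permutation p = 0.5, where 3 against 3 mice cannot go below 0.1). In each line the PosSelected mouse had the highest share and the NegSelected mouse the lowest, an order that holds only with delta-named genes counted. These shares count UMIs assigned to a Trav gene by the authors' counting, and transgene molecules assigned to Trac or to no gene are not in them.

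With delta-named genes left out, the share of other Trav was 70.0%, 84.0% and 76.3% in OT1 (NoSelection, PosSelected, NegSelected) and 68.0%, 84.7% and 73.9% in OT2. NoSelection was then the lowest mouse of each line. Counting all Trav, it was 65.7% of 35 UMIs in OT1 NegSelected and 69.7% of 122 UMIs in OT2 NegSelected CD4+CD8- cells. In CD4-CD8+ cells it was 82.6% to 96.4% in OT1.

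Most OT1 cells showed no Trav at all. A Trav UMI was missing in 82.7%, 66.0% and 79.9% of OT1 cells (NoSelection, PosSelected, NegSelected) and in 42.6%, 26.8% and 28.2% of OT2 cells. Cells with Trac but no Trav were 67.7% of 418 Trac-positive OT1 cells and 29.4% of 500 Trac-positive OT2 cells. After each cell was thinned to 2000 RNA UMIs (8 to 44 shallower cells a mouse left out), Trac was found in 21.03%, 42.9% and 25.5% of OT1 cells and in 72.5%, 87.8% and 79.7% of OT2 cells. Unthinned, the means were 52.9% and 92.5%. Thinned shares of cells with a Trav14 UMI were 1.38% to 3.06% in OT1 and 15% to 21.8% in OT2, and with another Trav 6.55% to 19.4% and 37.5% to 62.0%. For each of these 3 measures the lines did not overlap, with an exact two-sided permutation p of 0.1, the smallest this design allows.

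Trac was lowest in the OT1 CD4-CD8- cells, at 86.6 to 137 CPM, and 34.5% to 45.6% of those cells held a Trac UMI. How much of this was free RNA of the shared lane was not tested.

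Many cells held transcripts of more than 1 Trav gene. Trav14 and another Trav were found together in 110 cells, 61.8% of the 178 cells with a Trav14 UMI, and 226 cells held UMIs of 2 or more Trav genes. In OT2 PosSelected another Trav was found in 74.6% of 59 cells with Trav14 and in 65.1% of 195 without it; in OT2 NegSelected the values were 66.0% of 50 and 60.6% of 127. In OT1 NegSelected they were 18.2% of 11 and 15.5% of 193, and in OT1 PosSelected 68.8% of 16 and 30.1% of 266. In OT1 NoSelection they were 28.6% of 14 and 13.4% of 292, and in OT2 NoSelection 57.1% of 28 and 42.5% of 80. Another Trav was thus more frequent among cells with Trav14 in each of the 6 mice. Median RNA UMIs were higher in cells with a Trav14 UMI than in those without in OT1 NoSelection (5856 against 4712). The same held in OT2 NoSelection (3986 against 2941), PosSelected (2988 against 2923) and NegSelected (2902 against 2725). They were lower in OT1 PosSelected (5190 against 5385) and OT1 NegSelected (4419 against 5146). The part of depth in this joint detection was not tested.

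The Traj segments were few in number but differed in place. Traj61 to Traj42, on the Trav side of the cluster, gave 61.9% of 21 Traj UMIs in OT1 NoSelection, 58.6% of 70 in OT1 PosSelected and 57.9% of 19 in OT1 NegSelected. In OT2 PosSelected they gave 15% of 40 (exact 95% interval 5.71% to 29.8%) and in OT2 NegSelected 22.6% of 31 (9.59% to 41.1%). The OT2 NoSelection mouse stood with the OT1 mice, with 5 of 6 UMIs there. Traj21 to Traj2, on the Trac side, gave 10.0% to 21.1% in the OT1 mice, 37.5% in OT2 PosSelected and 32.3% in OT2 NegSelected. Segment numbers give the order along the locus, and these shares are descriptions with no test.

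**Figure D4:**
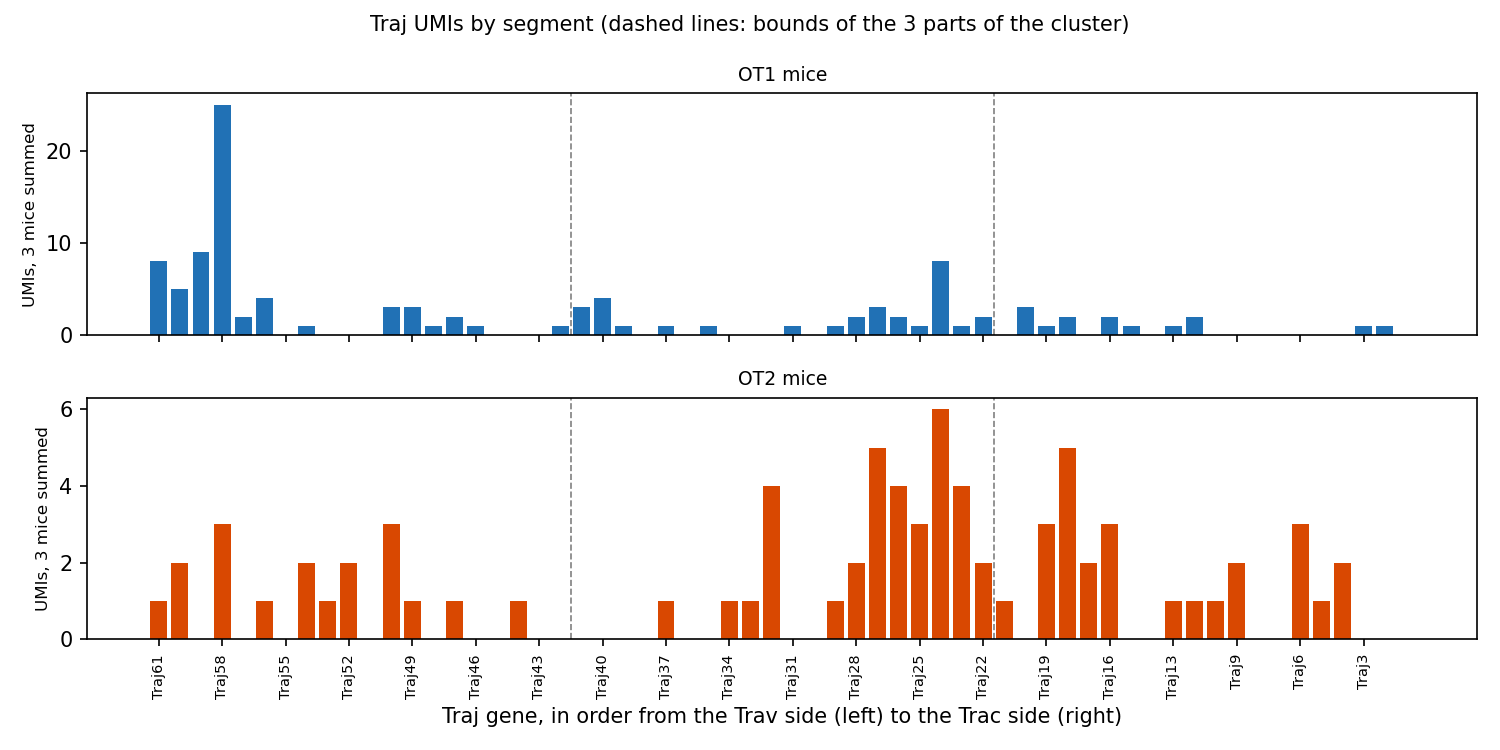
UMIs of each Traj segment (y axis, 3 mice summed) in order along the locus (x axis), OT1 above and OT2 below, on different y scales. Traj58 stands out in OT1 with 25 UMIs, while the OT2 UMIs are spread with no segment above 6.

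Traj58 (chr14:54157280-54157342), near the Trav end of the cluster, was the most counted joining segment, with 28 UMIs in 26 cells: 4, 18 and 3 in OT1 and 1, 2 and 0 in OT2. In OT1 NegSelected, Traj59 had 4 UMIs to its 3, so no Traj segment led in all 3 mice of a line. Traj33, the joining segment of the OT-I receptor, was at 0 in all 3 OT1 mice and had 1 UMI in OT2. No Traj segment was therefore used here to tell transgenic from endogenous chains. Trav separates them in part only, since a Trav14 transcript may come from either. Traj24 had 14 UMIs, Traj27 8, Traj18 7, Traj26 6 and Traj23 5, each with UMIs in both lines.

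Segments of invariant receptors were near 0. Trav11 and Trav11d, used with Traj18 by invariant NKT cells, had no UMI in any of the 1331 cells. Over these cells, pooled over mice, the upper limit on the share with a UMI was 0.225%, for counting error only. The cells had been sorted with an antibody to Va2, which the Trav14 family encodes. Trav1, used by mucosal-associated invariant T cells, had 7 UMIs in 3 cells, all in OT2. Of the 4 invariant NKT markers on the list none passed the filter on low counts. Their sum was 1.57 to 4.28 CPM in the OT1 mice and 5.09, 8.69 and 74.2 CPM in the OT2 mice. The highest value, in OT2 NoSelection, was Zbtb16 alone, with Klrb1c, Trav11 and Traj18 at 0 in that mouse.

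Among Trav without a delta name, families numbered 1 to 11, which duplicated blocks place among the other families along the cluster, gave 41.4% to 53.1% of UMIs in OT1 and 48.5%, 55.3% and 62.7% in OT2 (NoSelection, PosSelected, NegSelected). Trav12-2, with 43 UMIs in 17 cells, lay 86.0% in 1 mouse, OT2 PosSelected.

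Host comparisons gave no called alpha gene. Between PosSelected and NoSelection, 0 of the 26 alpha genes were called, and over all genes 1 was called (0.011%). Of the 26, 10 had an unadjusted p under 0.05, against 664 of all 9092 genes. Between NegSelected and PosSelected and between NegSelected and NoSelection no gene of the 9092 was called (0%). There, 3 and 8 of the 26 alpha genes had an unadjusted p under 0.05, against 418 and 236 of the 9092. With DESeq2 and with limma-voom no alpha gene was called in any of the 3 host comparisons either. The summed fitted changes from NoSelection to PosSelected were 0.77 (SE 0.25) for Trac, 0.41 (SE 0.30) for the Trav14 family, 1.00 (SE 0.25) for other Trav and 1.86 (SE 0.42) for Traj, with adjusted p from 0.2518 to 0.8721. With 1 mouse left out, the changes ran from 0.32 to 1.18 for Trac, 0.73 to 1.29 for other Trav and 1.44 to 2.49 for Traj. Each of these 3 was called in 1 of the 6 such fits. The Trav14 family, at -0.14 to 0.78, was called in none.

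Other Trav without a delta name stood at 26.2 CPM in OT1 NoSelection against 59.1 in OT1 PosSelected, and at 129 against 564 CPM in OT2. The fitted change was 1.73 (SE 0.27, adjusted p = 0.114), and with DESeq2 1.72 (adjusted p = 0.000803). With 1 mouse left out it ran from 1.22 to 2.185 and was called in 3 of 6 such fits. The gate makeup moved with it: CD4-CD8- cells were 74.8% and 31.9% of the OT1 cells and 47.2% and 9.84% of the OT2 cells in the same 2 hosts. Their part in the change was not tested.

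At the surface, the lines overlapped. TCRVA2 antibody took 120, 118 and 90.6 of 10000 antibody UMIs in OT1 (NoSelection, PosSelected, NegSelected) and 88.0, 185 and 83.9 in OT2. The highest isotype control in each mouse took 11.2 to 12.8. These are ratios of sums. The medians over cells for TCRVA2 were 102, 112 and 84.9 in OT1 and 54.3, 205 and 53.4 in OT2. By median, OT2 NoSelection and OT2 NegSelected thus lay below every OT1 mouse and OT2 PosSelected above every one. OT2 minus OT1, fitted on the sums, was 0.01 on the log2 scale (SE 0.31, adjusted p = 0.9903, edgeR over 116 antibodies, 0% called). A normal approximation, too narrow for so few mice, puts its 95% interval at -0.60 to 0.62. From NoSelection to PosSelected TCRVA2 differed by 0.54 (SE 0.38, adjusted p = 0.6722, 0.862% of antibodies called). Va2 was the sorting marker, so its level over all cells was bounded by the sort. The OT2 PosSelected mouse was the highest and carried 195 of 254 cells in the CD4+CD8- gate.

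By gate, TCRVA2 was lower in CD4+CD8+ than in CD4-CD8- cells (-0.83, SE 0.26, adjusted p = 0.0258; 29.3% of antibodies called) and higher in CD4+CD8- than in CD4+CD8+ cells (1.33, SE 0.26, adjusted p = 0.001296; 28.4% called). The first of these calls was lost in 5 of 6 fits that left out 1 mouse (-0.69 to -0.87 there, adjusted p up to 0.09364). It was kept only without OT1 PosSelected, at -1.08. In OT1 PosSelected the order was reversed, at 99.2 per 10000 in CD4+CD8+ and 85.4 in CD4-CD8- cells. In OT1 NoSelection the values were 73.2 and 123. In OT2 CD4+CD8+ cells TCRVA2 was at 40.8, 43.0 and 52.1 per 10000, and in OT2 CD4+CD8- cells at 168.5, 217 and 139 (NoSelection, PosSelected, NegSelected). Those are ratios of sums, and the medians over cells were 40.1, 38.0 and 48.4 in CD4+CD8+ against 40.7, 244 and 94.1 in CD4+CD8-. In OT2 NoSelection, with 10 CD4+CD8- cells, the medians of both gates were thus alike while the sums differed. The call from CD4+CD8+ to CD4+CD8- held in all 6 fits that left out 1 mouse (1.14 to 1.61, adjusted p up to 0.01107). TCRB, the antibody to the beta chain constant part, moved alike (-0.90, SE 0.26, adjusted p = 0.01989 and 2.19, SE 0.27, adjusted p = 3.817e-05), as did the antibody to Vb5 (-0.85, SE 0.27, and 1.24, SE 0.27).

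**Figure D5:**
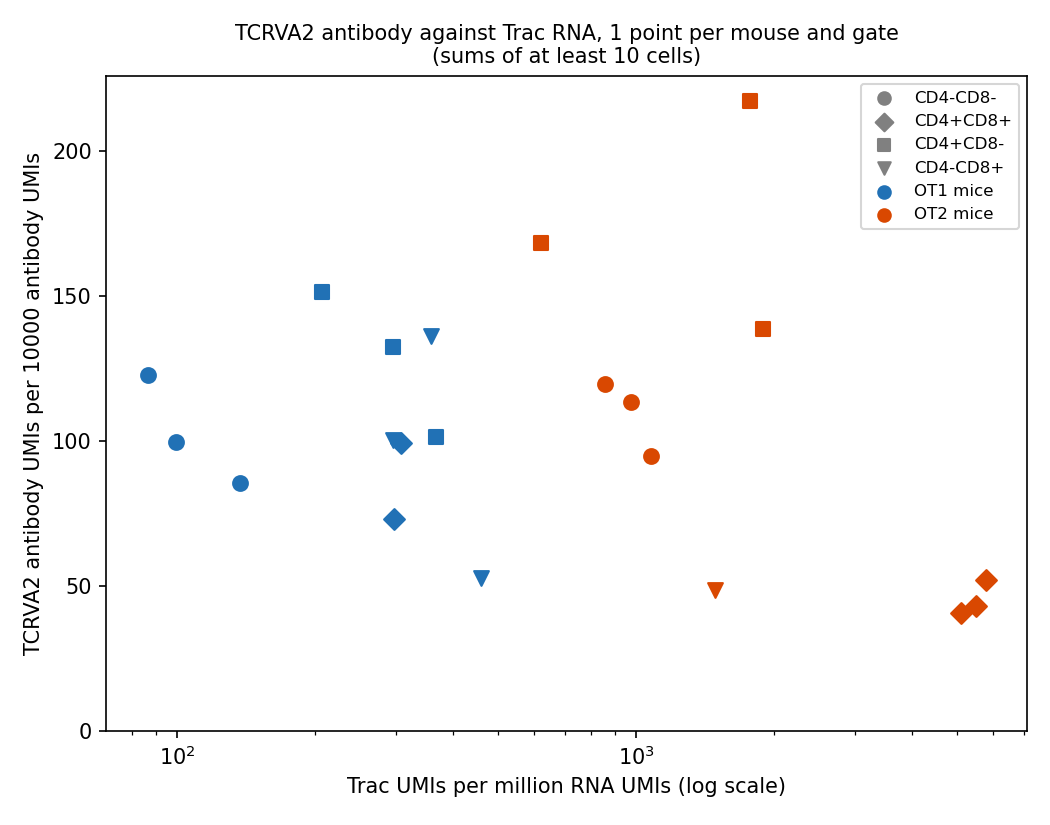
TCRVA2 antibody UMIs per 10000 antibody UMIs (y axis) against Trac UMIs per 1000000 RNA UMIs (x axis, log scale), 1 point per mouse and gate of at least 10 cells. The 3 OT2 CD4+CD8+ points sit at the right with 40.8 to 52.1 antibody UMIs per 10000; 1 other point, OT2 NegSelected CD4-CD8+ cells at 48.4, lies in that range and all others lie above it.

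Within a mouse, TCRVA2 and Trav14 RNA of the same cell were hardly related: Spearman's rho over cells was -0.07 to 0.07 in the 6 mice (108 to 306 cells, which share 1 library each, with most cells at 0 Trav14 UMIs). For Trac, rho was 0.14 in OT1 PosSelected and -0.39 in OT2 NoSelection, with the other 4 mice between -0.16 and -0.01. In OT2 NoSelection the 100 cells with Trac had a median of 54.2 TCRVA2 UMIs per 10000 and the 8 without it 110.

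Of the genes that recombine the locus, Rag1 and Rag2, the recombinase, were higher in OT2 (4.35, SE 0.56, adjusted p = 0.01202, and 3.98, SE 0.53, adjusted p = 0.01619). They were the 2 of 14 tested recombination genes that were called, where 1.07% of all genes were called. The median of the 14 was 0.14 against 0.01 over all genes. By itself Rag1 overlapped between the lines, at 4.97 CPM in OT2 PosSelected against 10.18 in OT1 NegSelected. Rag2 did not, at 0 to 4.28 CPM in OT1 and 9.93 to 58.95 CPM in OT2. Together the 2 genes stood at 0.54 to 11.7 CPM in OT1 and at 339, 14.9 and 96.7 CPM in OT2 (NoSelection, PosSelected, NegSelected). Trac in OT2 ran in another order over hosts, lowest in NoSelection. From CD4+CD8+ to CD4+CD8- cells 4 of 6 tested recombination genes fell (10.3% of all genes called): Rag2 (-4.98), Dntt, the enzyme that adds bases at the joint (-4.25), Xrcc6 (-1.51), which binds DNA ends, and Hmgb1 (-0.87), a chromatin protein.

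Of the 6 receptor partner genes tested between the lines, none was called (median 0.32), where 1.07% of all genes were called. Between CD4+CD8+ and CD4-CD8- cells 3 of 6 rose (12.7% of all genes called), Trbc1 (1.70, SE 0.25), Trbc2 (1.55, SE 0.26) and Cd3d (0.61, SE 0.20), and Trbc1 and Trbc2 fell again to CD4+CD8- (-1.75 and -1.40). Among the factors listed for the alpha enhancer and joining segment use, Myb (-2.95), Tcf12 (-1.46), Tcf7 (-1.06) and Gata3 (-0.96) fell from CD4+CD8+ to CD4+CD8- cells. Tcf7 and Ets1 rose from CD4-CD8- to CD4+CD8+ cells (0.84 and 0.77) and Gata3 fell (-0.88).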

How the data were processed

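The authors deposited whole-number RNA counts and antibody counts (UMIs) per cell, made with Cell Ranger 8.0.1 and Seurat on mm10 per the submitters' processing notes; which tool did which step is not given in the sources used here. Cells were tied to mice by hashtag; 0 cell names were shared. Gates were cut from 2-component mixtures on log2(antibody counts per 10000 + 1), at 7.218 for CD4 and 7.644 for CD8A; 251 of 1331 cells lay within 0.5 of a cut. Doublets were not called; instead, cells above the 95th percentile of RNA UMIs (67) were left out as an alternative. Counts were summed per mouse or per mouse and gate (10 cells or more) and tested with edgeR 4.0.16 (TMM, filterByExpr, quasi-likelihood F test, all genes adjusted together), after tests on simulated data; DESeq2 1.42.0 and limma 3.58.1 were alternatives. With 1 mouse per receptor and host, the fits over all 6 mice have 2 residual degrees of freedom. Their p-values measure the spread left after both terms. In it, animal differences and receptor effects that change with the host cannot be told apart. In gate fits the spread is that of gate sums after mouse and gate. In fits within a gate it is that between mice after receptor alone, with host differences in it. Intervals on counts are exact at 95% and cover counting error only.

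Named genes were Trac, each Trav14 gene with a count, Traj33, Traj22, Traj18, Trav11, Trav11d, Trav1, the 6 other Trav and 6 Traj with the highest mean CPM, and the called ones; Traj22 had 4 UMIs. A joining segment leading in all 3 mice of a line was to be reported separately; none met this, and Traj was summed. The members and lists were chosen with earlier results of these data known. The list of alpha enhancer and joining segment factors is given in part; the rest is not reported here. B cell markers summed to 9.93 to 36.1 CPM and myeloid markers to 2.35 to 5.71 CPM per mouse. Preselection markers summed to 665 to 2193 CPM, CD4 single-positive markers to 27.8 to 453 CPM and CD8 single-positive markers to 544 to 1510 CPM. Sequences came from the deposited antibody table; no segment sequences were used here.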

Additional observations from a re-analysis of the deposited data

Results flagged for a closer look

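The change of Trac RNA from CD4+CD8+ to CD4-CD8+ cells differed between the receptor lines by -2.05 on the log2 scale (OT2 minus OT1, SE 0.46, adjusted p = 0.0432, edgeR interaction term, added after seeing the data). A total of 19 of 5982 genes (0.318%) passed this test. It rests on 1 OT2 mouse with enough CD4-CD8+ cells and on 2 OT1 mice with enough CD4+CD8+ cells. The call was lost without OT1 NoSelection (-2.18, adjusted p = 0.1784), without OT1 PosSelected (-1.88, adjusted p = 0.2482) and without OT1 NegSelected (-1.94, adjusted p = 0.06258), and could not be fitted without OT2 NegSelected.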

How the results depend on the processing

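Where no cause is named, the cause was not tested; in fits that left out 1 mouse, a host or gate left with 1 sample is assumed to vary like the others. The 7 alpha genes called for OT2 minus OT1 became 2 to 21 with a mouse left out (2 without OT1 NegSelected or OT2 NegSelected, 19 without OT1 NoSelection, 21 without OT2 NoSelection), 3 with receptor as the only term and 28 with no filter on low counts. Within a gate, with fewer genes tested, they became 2 of 3 alpha genes tested (CD4-CD8-), 1 of 1 (CD4+CD8+) and 1 of 1 (CD4+CD8-). Over all genes the 97 called became 25 to 660 with a mouse left out, 45 with 1 term, 589 with no filter, 167 without the deepest cells, and 31 and 13 within the CD4+CD8+ and CD4+CD8- gates. From NoSelection to PosSelected the 0 alpha genes became 0 to 1 with a mouse left out and 8 with no filter, and the 1 called over all genes became 0 to 248, 33 with DESeq2, 11 with limma-voom, 280 with no filter and 40 without the deepest cells. Between NegSelected and PosSelected 1 alpha gene was called with no filter, and over all genes 6 with DESeq2, 98 with no filter, 5 without the deepest cells and 0 to 59 with a mouse left out; between NegSelected and NoSelection 54 were called with no filter and 0 to 78 with a mouse left out. From CD4-CD8- to CD4+CD8+ the 2 alpha genes became 1 with DESeq2 and in OT1 alone, 14 with no filter and 1 to 2 with a mouse left out (1 without OT2 NoSelection or OT2 PosSelected). From CD4+CD8+ to CD4+CD8- the 1 became 2 with no filter and 0 in OT1 alone. From CD4+CD8+ to CD4-CD8+ the 0 became 3 with no filter, 2 without cells near a gate threshold and 1 in OT2 alone. Over all genes these 3 gate comparisons gave 93, 15 and 4 calls in OT1 alone, against 556, 451 and 236, and with a mouse left out 342 to 520, 275 to 490 and 24 to 246 (24 without OT2 NegSelected); the last gave 456 without cells near a threshold and 393 with no filter. The receptor differences of Trac (3.18 to 3.73), Trav14 (2.88 to 3.35) and other Trav (2.31 to 2.76) kept their calls with any 1 mouse left out; Trav14 within CD4+CD8- cells was 0.99. Trac from CD4+CD8+ to CD4-CD8+ was -1.25 without cells near a threshold and -1.75 in OT2 alone, both called, the second with 1 mouse in the CD4-CD8+ arm, but 0.23 in OT1 alone, and its change to CD4+CD8- was -0.068 in OT1 alone. With a mouse left out, Trac ranged from -0.56 to 0.30 for NegSelected minus PosSelected and from 0.32 to 1.18 for PosSelected minus NoSelection. The Trav14 change to CD4+CD8+ ranged from 1.92 to 2.46 and was 1.30 in OT1 alone; its later changes were -0.13 (to CD4+CD8-, OT2 alone) and 0.031 (to CD4-CD8+, OT1 alone), and its PosSelected minus NoSelection value ranged from -0.14 to 0.78. Traj from CD4-CD8- to CD4+CD8+ ranged from 2.04 to 2.80 and lost its call without cells near a threshold (2.16), in OT1 alone (2.27) and in OT2 alone (2.22). Traj ranged from -0.70 to 0.031 to CD4+CD8-, from -0.27 to 0.60 to CD4-CD8+ (-0.10 in OT2 alone), from -1.41 to 0.057 for NegSelected minus PosSelected and from 1.44 to 2.49 for PosSelected minus NoSelection. Other Trav was -0.12 to CD4+CD8- in OT2 alone, 0.11 to CD4-CD8+ without cells near a threshold, and ranged from -0.37 to 0.25 to CD4-CD8+, from -0.18 to 0.66 for NegSelected minus NoSelection and from 0.73 to 1.29 for PosSelected minus NoSelection. Delta-named Trav ranged from -0.78 to 0.039 to CD4+CD8+ (0.27 in OT1 alone), was -0.58 to CD4-CD8+ in OT2 alone, and ranged from -0.50 to 0.89 for PosSelected minus NoSelection; Trav without a delta name was 0.12 to CD4+CD8- without cells near a threshold. TCRVA2 ranged from -1.08 to -0.69 from CD4-CD8- to CD4+CD8+, from -0.27 to 0.25 between lines, from -0.57 to 0.15 for NegSelected minus NoSelection and from -0.02 to 0.99 for PosSelected minus NoSelection. Of Trav UMIs, the share outside the Trav14 family was 70.0%, 84.0% and 68.0% without delta-named genes (OT1 NoSelection, OT1 PosSelected, OT2 NoSelection). As a mean over cells it was 78.6% and 70.1% (OT1 and OT2 NoSelection). The line difference in cells with a UMI was 3.7 points for Trav14 and 23.6 for other Trav at 2 or more UMIs, and 10.1 for Trav14 thinned to 1000 UMIs. No paired analysis was possible because each receptor and host has 1 mouse and replicate numbers mark no shared animal; the gate fits carry the mouse as a block.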
